A study of Mus musculus with 4 samples.

Results

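The genes described here encode the protein subunits of the mitochondrial ribosome. They were taken by name: every gene symbol that begins with Mrpl or Mrps and a number was kept, and pseudogene rows were left out. This gave 78 of the 47561 gene symbols measured, 49 of them named Mrpl for the large subunit and 29 named Mrps for the small subunit. By their known place in the particle, 51 belong to the large subunit and 26 to the small subunit, because Mrps30 and Mrps18a sit in the large subunit despite their names. The remaining gene, Mrps36, is now known as a subunit of the α-ketoglutarate dehydrogenase complex.

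RNA-seq was carried out on LSK cells (Lin-Sca-1+c-Kit+), the fraction of bone marrow that holds blood stem and early progenitor cells, sorted by FACS from C57BL/6 mice aged 12 weeks. By its title, the series concerns the control of these cells by macrophage meteorin, the secreted product of Metrn. One group was Metrn f/f, with both Metrn alleles floxed and otherwise called wild type, and the other was Metrn f/f with LysM, called Metrn cKO; their mice are called f/f and cKO below. LysM is the older name of lysozyme 2, whose promoter is widely used to drive Cre recombinase in myeloid cells, and the labels name no recombinase. The floxed alleles were therefore shared by both groups. By this common use of LysM, the deletion would be directed at myeloid cells and not at the sorted cells themselves. Each group had 2 replicate libraries, named here f/f 1, f/f 2, cKO 1 and cKO 2. Each is taken as 1 mouse, although the sample titles give only genotype and replicate number. Every p-value rests on the spread within these groups of 2 mice and on a variance trend drawn from all genes tested. All values are FPKM, read fragments divided by the length of the transcript and the size of the library, so genes can be compared per length.

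Mitochondria keep a small genome whose mRNAs all encode subunits of the respiratory chain and ATP synthase, and only mitochondrial ribosomes translate them. The RNA parts of this ribosome come from mitochondrial DNA, while all of its proteins are encoded in the nucleus, made in the cytosol and imported. Some of these proteins descend from bacterial ribosomal proteins and others were gained in the mitochondrial lineage. Blood stem cells are known for low mitochondrial activity and low protein synthesis, which rise as the cells begin to differentiate.

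Binding sites of NRF1, YY1 and the ETS factor GABPA are known from promoters of genes for mitochondrial proteins. RefSeq promoter windows (build GRCm38.p6, from 250 bases before to 50 bases after the gene's start) were found for 69 of the 78 genes and searched on both strands. The NRF1 core letters GCGCATGCG were in 7 of the 69 windows (10.1%), against 1.81% of all RefSeq promoters and 3.84% of the promoters of genes tested here. These letters were shortened after the matches of a longer palindrome, which were fewer, had been seen. The core overlaps its own reverse complement wherever that palindrome is present. Shown are Mrpl9 at chr3:94443298-94443326 on the plus strand, and Mrpl32 at chr13:14613106-14613134, Mrpl39 at chr16:84735351-84735379 and Mrpl17 at chr7:105811080-105811108 on the minus strand. They are shown because the same core lies at different distances from the start, with capitals marking it:
Mrpl9: aggcgcagctGCGCATGCGcggggtcctt
Mrpl32: tttgacccttGCGCATGCGcaagaggggc
Mrpl39: aaggagaggcGCGCATGCGcccccgcgtg
Mrpl17: ccgagttactGCGCATGCGtcctctgaga

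The YY1 letters AAGATGGCG were in 8 windows (11.6%), against 1.5% of all promoters and 3.45% of those of tested genes. In most of the 8 the match lay just after the start of transcription, and the letters include ATG. Shown are Mrps18a at chr17:46111005-46111033 and Mrps27 at chr13:99344790-99344818, both on the plus strand, and Mrpl42 at chr10:95501904-95501932 on the minus strand. Mrpl36 at chr13:73330968-73330996 on the plus strand holds the letters on the opposite strand, so the capitals read as their reverse complement:
Mrps18a: ggtgcgttccAAGATGGCGgccctcaggg
Mrps27: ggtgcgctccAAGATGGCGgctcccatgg
Mrpl42: agattgaagcAAGATGGCGagcgcgcggt
Mrpl36: cgtgaccttaCGCCATCTTtcttcctggc

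The ETS letters CCGGAAGT were in 11 windows (15.9%), against 4.00% of all promoters and 8.82% of those of tested genes. Shown are Mrpl52 at chr14:54426900-54426927 (plus strand, with the motif reversed), the gene that differed most between the wild-type libraries, Mrpl33 at chr5:31613938-31613965 (plus strand), the most abundant one, and Mrpl3 at chr9:105053239-105053266 (plus strand). For Mrps22, whose level barely moved between libraries, the 150 bases at chr9:98601680-98601829 on the minus strand are given, all upstream of the annotated start. Capitals mark the ETS letters:
Mrpl52: ggccacgcccACTTCCGGttcccttgct
Mrpl33: cgcgcatgccCCGGAAGTagtcgttgag
Mrpl3: gagaaacggaCCGGAAGTggcccggctg
Mrps22: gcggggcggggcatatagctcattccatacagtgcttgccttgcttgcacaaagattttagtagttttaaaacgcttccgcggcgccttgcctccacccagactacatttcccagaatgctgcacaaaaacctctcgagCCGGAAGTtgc

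One or more of these 3 motifs was in 25 of the 69 windows (36.2%), against 6.95% of all promoters and 15.2% of those of tested genes. Other motifs were no more frequent than elsewhere among tested genes: CCAAT was in 27 windows (39.1%, against 39.6% of tested genes) and the MYC E-box CACGTG in 5 (7.25%, against 10.6%). The GC box GGGCGG was in 34 windows (49.3%, against 63.6% of tested genes), and the TATAAA box was in 4 (5.80%, against 6.99%). The median GC content of the windows was 58.3%, between 52.7% for all promoters and 60.7% for tested genes. A match is a description of letters and not evidence of binding.

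Before the genes themselves, the libraries need a description, because they did not pair off by genotype. The expected LSK surface gene Kit had 108 FPKM in f/f 1, 24.8 in f/f 2, 25.9 in cKO 1 and 116 in cKO 2. Ly6a, which encodes Sca-1, was present throughout, at 37.2, 83.2, 48.5 and 38.2 FPKM in the same order. The summed FPKM of 10 neutrophil genes was 2581 and 32621 in the f/f libraries and 58517 and 2026 in the cKO libraries. That of 10 erythroid genes was 3993, 37742, 31508 and 3238, most of it from globin genes such as Hba-a1 (1248, 12451, 10354 and 1027). All 10 erythroid genes were at least 2-fold higher in f/f 2 than in f/f 1, and 7 were so in cKO 1. Gata1 was not, at 4.02 FPKM in f/f 1 and 3.10 in cKO 1. The 10 macrophage and monocyte genes summed to 78.7 and 1214 FPKM in the f/f mice and to 306 and 90.9 in the cKO mice, and the 10 B and plasma cell genes to 61.7, 536, 1064 and 73.1. The 8 T and NK cell genes summed to 151, 263, 183 and 146 FPKM, most of it from Nkg7 (149, 248, 170 and 144). The highest value of any other gene of this list was 3.90 FPKM, for Cd3g in f/f 2. Every gene of the list was higher in f/f 2 and cKO 1 than in f/f 1 and cKO 2. Cd3d was at 0 in f/f 1. Cd3e, Cd3g and Trac were at 0 in cKO 2, where Ms4a1 of the B cell list was also at 0. f/f 2 and cKO 1 thus stood apart from the other pair, each with lower Kit and more mature blood cell RNA. In a bulk sample, a difference in the number of cells of a type and a difference in RNA per cell cannot be told apart. Metrn itself had 29.3 and 66.3 FPKM in the f/f mice and 42.3 and 36.7 in the cKO mice. These values were not used to check the labels. By the common use of LysM the deletion would not be directed at LSK cells, though the libraries also held RNA of mature myeloid cells.

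All 78 genes were detected in every library, and all passed the filter of at least 1 FPKM in at least 2 libraries, which kept 13148 genes. Their mean levels ran from below 10 FPKM in 6 genes to above 50 FPKM in 19. Together they made up 0.513% and 0.641% of all FPKM in the f/f mice and 0.456% and 0.524% in the cKO mice. The order of the genes by level was much the same in each library. Across the 78 genes, Spearman's rho of the levels lay between 0.904 (f/f 1 and f/f 2) and 0.973 (f/f 1 and cKO 2), as a description over genes and not over independent samples.

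In the large subunit the most abundant mRNA was that of Mrpl33, a very small protein with a bacterial homolog, at 78.5 and 217 FPKM in the f/f mice and 128 and 83.5 in the cKO mice. Mrpl52, a protein with no bacterial counterpart, had 46.3 and 179 FPKM in the f/f mice and 68.7 and 55.6 in the cKO mice. Mrpl12, which forms the stalk that receives the translation factors, had 63.8 and 143 FPKM in the f/f mice and 69.2 and 60.7 in the cKO mice. In each of these genes f/f 2 was the high library and both cKO libraries lay nearer to f/f 1. Mrpl23, which lies at the exit of the peptide tunnel, had 54.4 and 141 FPKM in the f/f mice and 72.2 and 56.8 in the cKO mice. Mrpl34 had 51.5 and 140 FPKM in the f/f mice and 66.7 and 59.2 in the cKO mice. Mrpl18 had 50.9 and 105 FPKM in the f/f mice and 90.7 and 56.5 in the cKO mice. On GRCm38 the GENCODE gene Mrpl33 spans chr5:31596935-31664384, Mrpl52 chr14:54426909-54429756 and Mrpl12 chr11:120484613-120489065. The RefSeq promoter window of Mrpl33 lies inside its GENCODE span, so RefSeq and GENCODE can place a gene's start differently. For these 6 genes the groups overlapped, since at least 1 cKO library lay between the f/f libraries.

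In the small subunit Mrps21 was the most abundant, at 39.2 and 111 FPKM in the f/f mice and 83.1 and 34.5 in the cKO mice. The gene spans chr3:95862634-95871519 on GRCm38. It also had the widest gap within the cKO mice of all 78 genes, 2.41-fold higher in cKO 1 than in cKO 2. Mrps15 had 38.3 and 85.7 FPKM in the f/f mice and 54.3 and 45.1 in the cKO mice. Mrps26, found only in mitochondrial ribosomes, had 43.3 and 84.4 FPKM in the f/f mice and 44.9 and 48.7 in the cKO mice. Mrps16 had 33.5 and 89.8 FPKM in the f/f mice and 54.6 and 35.4 in the cKO mice. The high library was again f/f 2 in every one of them.

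The bacterial protein S18 has 3 mitochondrial paralogs in mammals, which occupy different places in the ribosome. Mrps18c was the most abundant of them, at 35.2 and 91.9 FPKM in the f/f mice and 58.7 and 40.3 in the cKO mice. Mrps18a, the one in the large subunit, had 26.2 and 48.7 FPKM in the f/f mice and 33.5 and 25.4 in the cKO mice. Mrps18b had 21 and 38.1 FPKM in the f/f mice and 17.0 and 23.8 in the cKO mice. All 3 were highest in f/f 2, while Mrps18b alone was lowest in cKO 1.

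The 4 genes of lowest mean level were Mrpl1, Mrpl35, Mrpl17 and Mrps25. Mrpl1, of the mobile stalk beside the tRNA exit, had 4.94 and 5.40 FPKM in the f/f mice and 5.46 and 4.47 in the cKO mice. Mrpl35 had 4.48 and 8.39 FPKM in the f/f mice and 5.37 and 4.13 in the cKO mice. Mrpl17 had 4.56 and 10.7 FPKM in the f/f mice and 5.06 and 4.76 in the cKO mice. Mrps25, with no bacterial homolog, had 7.56 and 8.47 FPKM in the f/f mice and 6.61 and 6.89 in the cKO mice. The higher level of f/f 2 was therefore seen in low genes such as Mrpl17 too, but hardly in Mrpl1.

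**Figure D1:**
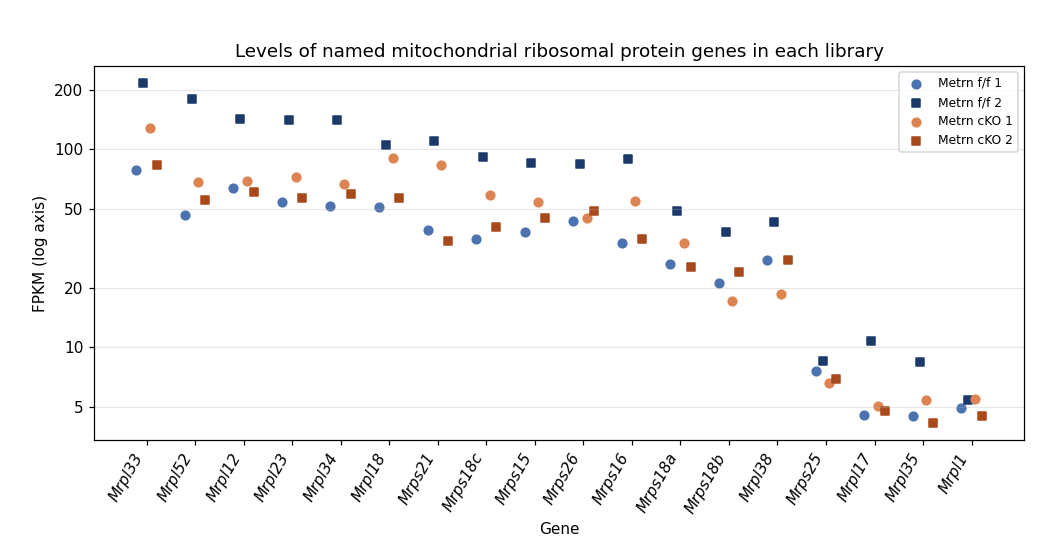
FPKM (log axis) of the most and least abundant mitochondrial ribosomal protein genes, the Mrps18 paralogs and Mrpl38, 1 point per library and 4 libraries per gene; blue marks Metrn f/f and orange Metrn cKO. f/f 2 is the top point in every gene plotted except Mrpl1, and the other 3 libraries lie close together in most genes.

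The genotypes were set against each other in a limma fit across all 13148 genes, and no mitochondrial ribosomal protein gene was called. At an adjusted p under 0.05 limma called 0 of the 78 genes and 0 of all genes tested (0.0%). At an unadjusted p under 0.05 it found 0 of the 78 genes, against 0.297% of all genes tested. The fitted level was nevertheless lower in the cKO mice in 73 of the 78 genes, against 5578 of all 13148 genes tested. The median log2 difference (cKO minus f/f, on the log2(FPKM + 1) scale) was -0.30 over the 78 genes, -0.29 over the large subunit and -0.31 over the small subunit, beside 0.07 over all genes tested. This direction rested on 1 library: without f/f 2 the median was 0.19, and 15 of the 78 genes had the lower level in the cKO mice. With the libraries rescaled by median ratios the median was -0.36 (all genes 0.02), and with quantile scaling it was -0.23 (all genes 0.02). Without rescaling, the median over other genes was -0.21 for coding sequences under 500 nt and -0.08 from 500 to 1000 nt. At 1000 nt and above it was 0.18. The mitochondrial ribosomal protein genes had medians of -0.33, -0.26 and -0.20 in these classes, and the part of length was not tested.

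The gene with the smallest p was Mrpl38, a protein of the central protuberance that bacteria lack, at 27.7 and 43.1 FPKM in the f/f mice and 18.5 and 27.5 in the cKO mice. Its log2 difference was -0.60 with a standard error of 0.44 (limma adjusted p = 1.00), which did not pass the threshold. The gene spans chr11:116131817-116138868 on GRCm38. Mrpl14 had the lowest fitted difference of the 78 genes. It had 30.8 and 104 FPKM in the f/f mice and 45.3 and 28.9 in the cKO mice, a log2 difference of -0.63 with a standard error of 0.63 (limma adjusted p = 1.00). At the other end stood Mrpl49, with 18.7 and 22.9 FPKM in the f/f mice and 30.4 and 17.7 in the cKO mice and a log2 difference of 0.16 (standard error 0.44).

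In 7 of the 78 genes (8.97%) both cKO libraries lay below both f/f libraries, which held for 5.73% of all genes tested. The opposite order held for 0 of the 78 genes and for 6.31% of all genes tested. The 7 were Mrpl38 and 6 genes named after their values were seen: Mrpl9, Mrpl19, Mrpl37, Mrpl48, Mrps25 and Mrps27. Their gaps were narrow. Mrps27, which belongs to the pentatricopeptide repeat proteins, had 16.2 and 17.3 FPKM in the f/f mice and 11.8 and 14.9 in the cKO mice. Mrpl37 had 28.2 and 35.6 FPKM in the f/f mice and 23.9 and 27.7 in the cKO mice. Mrpl9 had 31.81 and 38.4 FPKM in the f/f mice and 31.80 and 28.7 in the cKO mice, so that a single cKO library all but touched the lower f/f library. Only Mrpl38 differed by 1.3-fold or more between group means.

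The larger difference lay between the mice of the wild-type group. f/f 2 was the highest library in 73 of the 78 genes (93.6%), which was so in 29.8% of all genes tested. The 73 comprised 47 of the 51 large subunit genes, 25 of the 26 small subunit genes and Mrps36. The 5 exceptions were Mrpl19, highest in f/f 1 (all genes tested: 23.0%), Mrpl1 and Mrpl49, highest in cKO 1 (14.8%), and Mrpl50 and Mrps2, highest in cKO 2 (32.4%). The lowest library was f/f 1 in 44 genes (all genes tested: 19.9%), cKO 2 in 22 (13.5%), cKO 1 in 11 (22.0%) and f/f 2 in 1 (44.6%). After rescaling, f/f 2 was the highest in 77 of the 78 genes with median ratios and in 73 with quantiles.

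Between the wild-type mice, 75 of the 78 genes were higher in f/f 2 than in f/f 1, against 42.3% of all genes tested. The median difference over the 78 genes was 0.98 on the log2 scale, while the median over all genes tested was -0.23. The gap was at least 2-fold in 40 of the 78 genes (51.3%, against 16.4% of all genes tested), and no gene was 2-fold lower. cKO 1 was higher than f/f 1 in 64 genes (all genes tested: 38.6%), with a median difference of 0.27 over the 78 genes (all genes -0.19). cKO 2 lay close to f/f 1, with a median of 0.07 (all genes 0.04). Against f/f 2, cKO 1 was lower by a median of -0.65 (all genes 0.08) and cKO 2 by -0.87 (all genes 0.29). Within the cKO mice the median of cKO 2 minus cKO 1 was -0.17 (all genes 0.24). These 6 pairs share libraries and are descriptions of single mice, with no test. Summed FPKM of all genes was 392717 in f/f 1, 671802 in f/f 2, 562401 in cKO 1 and 412955 in cKO 2. As a share of these sums, the 78 genes were lower in cKO 1 (0.456%) than in f/f 1 (0.513%). Their share was highest in f/f 2 (0.641%). The neutrophil sum was highest in cKO 1 and the macrophage and monocyte sum was highest in f/f 2, at 1214 FPKM against 306 in cKO 1. The erythroid sums of these libraries were similar, while the median log2 difference of cKO 1 minus f/f 2 over the 10 erythroid genes was -1.23. The part of other cells in the differences between libraries was not tested.

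**Figure D2:**
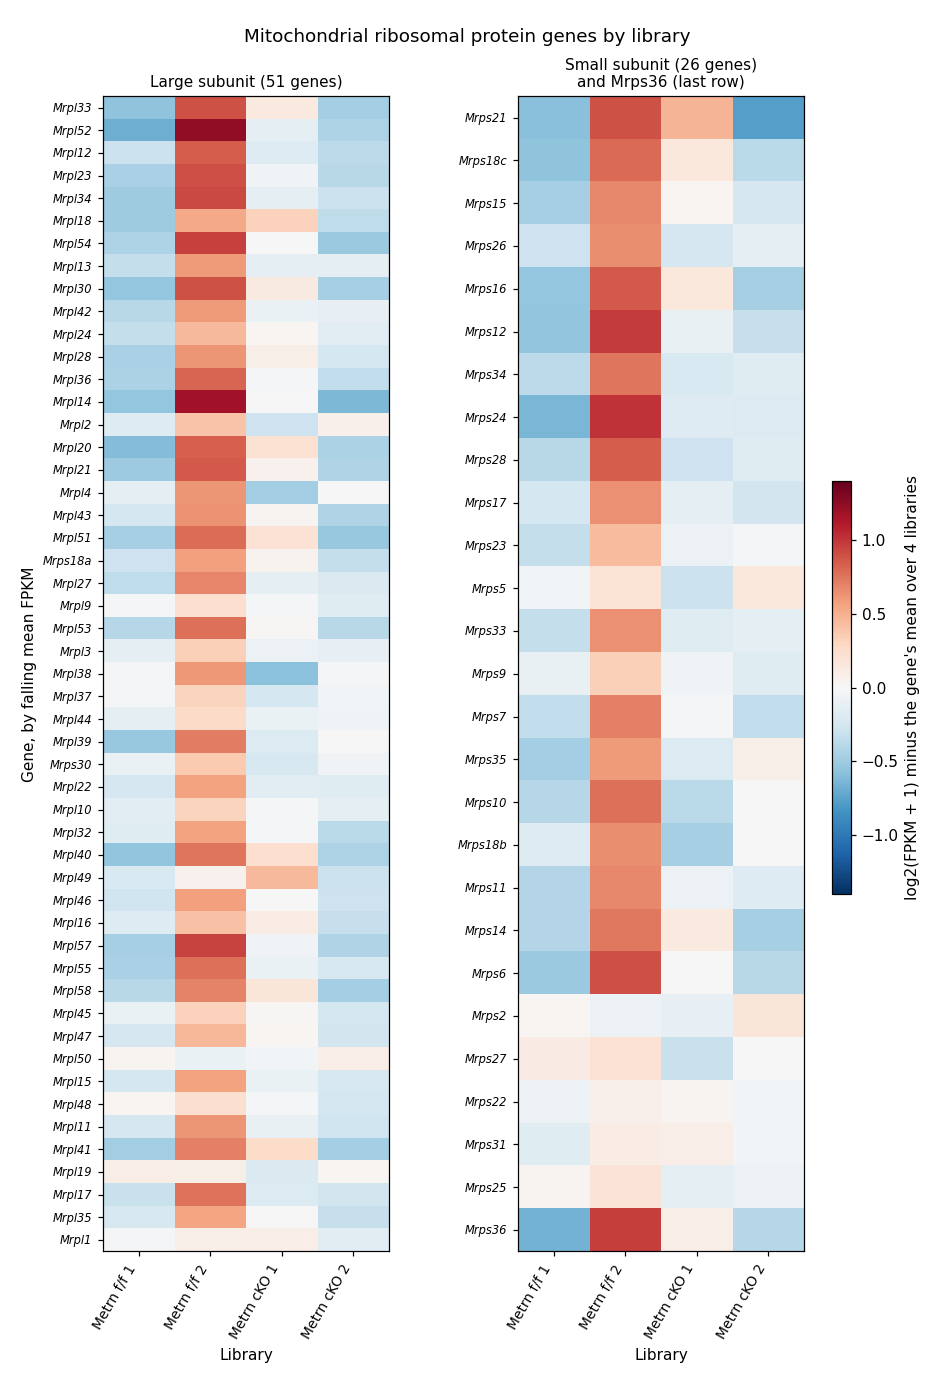
Every mitochondrial ribosomal protein gene (rows, by falling mean FPKM within each panel) in each library (columns); colour is log2(FPKM + 1) minus the gene's mean over the 4 libraries, red above and blue below. The f/f 2 column is the reddest in 73 of the 78 rows, in both subunits.

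Between the wild-type mice the widest gap was that of Mrpl52, 3.87-fold, followed by Mrpl14 with 3.37-fold. Mrps36 came next at 15.0 and 48.6 FPKM in the f/f mice and 26.1 and 18.3 in the cKO mice, a 3.24-fold gap. Mrps24, a homolog of bacterial S3 at the mRNA entry, had 26.3 and 84.8 FPKM in the f/f mice and 36.7 and 36.2 in the cKO mice, a 3.22-fold gap. Mrps12, the protein of the decoding centre whose bacterial homolog is known for streptomycin resistance, had 29.1 and 85.7 FPKM in the f/f mice and 40.1 and 34.1 in the cKO mice, a 2.95-fold gap. In these 5 genes both cKO libraries were closer to f/f 1 than to f/f 2 on the log2 scale, though cKO 1 lay about midway for Mrps36.

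A few genes did not share the pattern. Mrpl50, a protein with no bacterial homolog, had 13.4 and 12.2 FPKM in the f/f mice and 12.7 and 13.9 in the cKO mice. Mrps2 had 15.7 and 14.6 FPKM in the f/f mice and 14.2 and 17.6 in the cKO mice. Mrpl19 had 10.2 and 10.1 FPKM in the f/f mice and 8.13 and 9.68 in the cKO mice. These were the only genes of the 78 that were lower in f/f 2 than in f/f 1. Mrps22, whose promoter stretch with its ETS letters is given above, stayed between 12.2 and 13.6 FPKM in all 4 libraries. Mrpl52 carries the same letters at its start and ranged from 46.3 to 179 FPKM. Over all matched genes, the median log2 difference between f/f 2 and f/f 1 was 0.95 in the 25 genes with an NRF1, YY1 or ETS match and 1.06 in the 44 without one.

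The 78 genes are short, from 195 to 1326 nt of coding sequence with a median of 582 nt, against 1320 nt over all genes tested. Over the 11079 tested genes with a matched coding sequence, Spearman's rho of the difference between f/f 2 and f/f 1 with coding length was -0.72. It was -0.69 over the 78 genes, and these correlations run over genes that share 2 libraries. For cKO 2 minus f/f 1 they were -0.18 and -0.10.

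In 3 wide classes of coding length, the medians of f/f 2 minus f/f 1 were as follows, with lengths not matched within a class. Under 500 nt, the 28 mitochondrial ribosomal protein genes had a median log2 difference of 1.36 and the 1123 other genes had 1.12. From 500 to 1000 nt, the values were 0.85 for 39 genes and 0.39 for 2640 others. At 1000 nt and above they were 0.32 for 11 genes, a thin class that reaches only 1326 nt, and -0.65 for 7238 others, which run far longer. Mrpl39 was the longest gene with a gap over 2-fold, at 1008 nt and 17.6 and 43.2 FPKM in Metrn f/f against 22.4 and 25.9 in the cKO mice. Length moved with the difference between libraries across the whole table, and its part in the level of these genes was not tested.

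**Figure D3:**
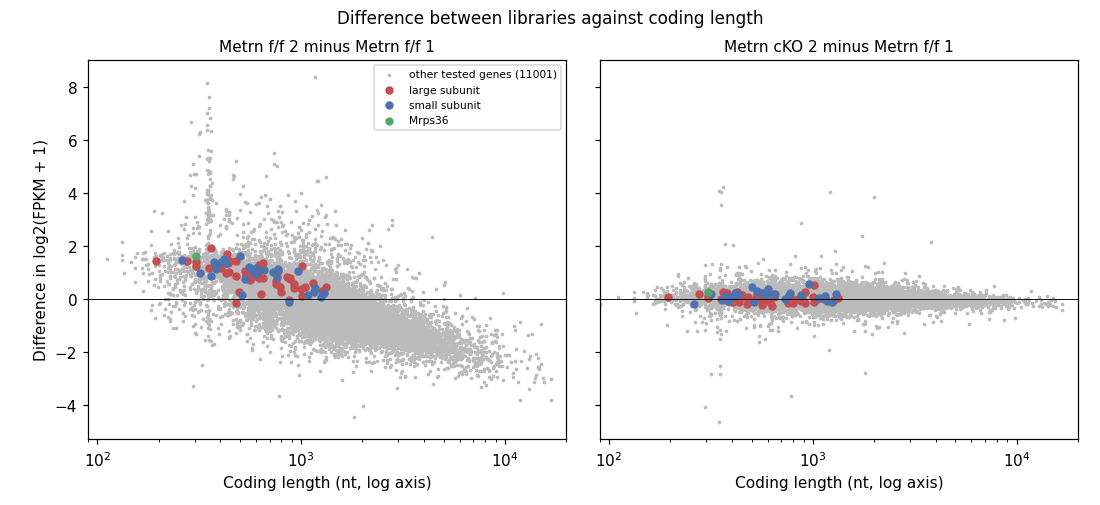
Difference in log2(FPKM + 1) between 2 libraries (vertical) against coding length in nt (log axis), 1 point per gene, with mitochondrial ribosomal protein genes in colour and other tested genes in grey. Between f/f 2 and f/f 1 short genes lie high and long genes low (Spearman's rho -0.72 over all genes), and between cKO 2 and f/f 1 the cloud is nearly flat (-0.18).

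Many of these genes share a promoter region with a neighbour. Of the 78 genes, 26 (33.3%) have a protein-coding neighbour that starts within 1000 nt and is read the other way, against 15.4% of 10948 tested protein-coding genes. Mrpl46 and Mrps11 are each other's neighbour, and both were highest in f/f 2. Mrps11 had 14.7 and 32.5 FPKM in the f/f mice and 18.7 and 17.6 in the cKO mice, and Mrpl46 had 16.9 and 31.4 in the f/f mice and 20.7 and 16.9 in the cKO mice.

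The other neighbours did not follow. Of the 23 tested neighbours outside the family, 7 were higher and 16 lower in f/f 2 than in f/f 1. Of all genes tested, 42.3% were higher. The median log2 difference of the neighbours was -0.48, beside -0.23 over all genes tested. It was 1.05 for the mitochondrial ribosomal protein genes they face. The ribosomal protein gene was above its neighbour in 18 of the 23 pairs, and across pairs Spearman's rho of the differences was -0.015. Ncapd2, a condensin subunit that faces Mrpl51, had 99.6 and 29.2 FPKM in the f/f mice and 70.5 and 94.0 in the cKO mice. Hira, a histone chaperone that faces Mrpl40, had 22.2 and 8.27 FPKM in the f/f mice and 16.8 and 19.0 in the cKO mice. Ndufs6, a subunit of respiratory complex I that faces Mrpl36, went the other way, with 50.2 and 143 FPKM in the f/f mice and 90.6 and 54.5 in the cKO mice. Psma2, a proteasome subunit that faces Mrpl32, had 76.7 and 173 FPKM in the f/f mice and 125 and 83.9 in the cKO mice. These 4 neighbours were picked with their values in view. The neighbours' coding sequences were longer, with a median of 1710 nt. Tested genes outside the family of 1000 nt and above had a median difference of -0.65, and the part of length was not tested.

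The exons of 26 of the 78 genes overlap those of another gene, such as Mrpl18 with Tcp1, Mrpl43 with Twnk, Mrpl49 with Syvn1 and Mrpl36 with Ndufs6. The strand setting of the counting is not given in the sources used here, so reads of such pairs cannot be told apart and those levels are uncertain. The 5 pseudogene rows that were left out were low. The highest, Mrpl23-ps1, had 1.93 and 3.80 FPKM in the f/f mice and 2.25 and 1.348 in the cKO mice.

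The other proteins of mitochondrial translation were described from lists, in which limma called no gene and no gene had an unadjusted p under 0.05. Of 5 mitochondrial ribosomal proteins with other names, 3 were far higher in f/f 2 than in f/f 1, and Dap3 and Ptcd3 were not. Chchd1 had 44.2 and 99.3 FPKM in the f/f mice and 62.2 and 41.8 in the cKO mice, and Aurkaip1 had 34.9 and 84.5 in the f/f mice and 65.1 and 44.2 in the cKO mice. Dap3, the GTP-binding protein of the small subunit, had 33.0 and 27.9 FPKM in the f/f mice and 21.2 and 28.0 in the cKO mice. Ptcd3, another pentatricopeptide repeat protein of the small subunit, had 24.7 and 17.6 FPKM in the f/f mice and 15.8 and 20.2 in the cKO mice.

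Translation and assembly factors showed a smaller shift, or none, in f/f 2. Centred on each gene's mean over the libraries, the median of f/f 2 was 0.63 on the log2 scale for the 78 genes, -0.05 for 12 translation factors and 0.17 for 25 assembly factors. Over all genes tested it was -0.15. Where matched, median coding lengths were 1338 nt for the translation factors and 1098 nt for the assembly factors. Tufm, the elongation factor that brings aminoacyl-tRNA, had 48.7 and 59.98 FPKM in the f/f mice and 49.4 and 45.1 in the cKO mice. Tsfm, its exchange factor, had 21.1 and 27.5 FPKM in the f/f mice and 15.4 and 15.4 in the cKO mice, without overlap between the groups, at a log2 difference of -0.61 (limma adjusted p = 1.00). Among the 12 factors, Mtrf1l and Mrrf were also lower in both cKO libraries, making 3 of 12 (all genes tested: 5.73%), and 0 were higher in both (6.31%). C1qbp, a matrix protein bound to the ribosome's assembly, had 104 and 155 FPKM in the f/f mice and 101 and 108 in the cKO mice. Rbfa, which matures the small subunit rRNA, had 41.99 and 75 FPKM in the f/f mice and 64.5 and 53.3 in the cKO mice. Of the 25 assembly factors, 3 were higher (all genes tested: 6.31%) and 2 lower (5.73%) in both cKO libraries.

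Protein import genes came closest to the ribosomal proteins. Over 16 genes of the import machinery the centred median was -0.33 in f/f 1, 0.58 in f/f 2, 0.00 in cKO 1 and -0.33 in cKO 2. Tomm22, the receptor of the outer membrane, had 57.3 and 145 FPKM in the f/f mice and 88.8 and 54.1 in the cKO mice, and Tomm6, a small subunit of the same channel, had 67.0 and 139 in the f/f mice and 85.3 and 69.2 in the cKO mice. The import genes were also short, with a median coding length of 431 nt. The 17 mitochondrial aminoacyl-tRNA synthetases, with a median of 1656 nt, had a centred median of 0.23 and -0.18 in the f/f mice and -0.22 and 0.14 in the cKO mice. The leucine enzyme Lars2 had 39.2 and 18.6 FPKM in the f/f mice and 14.6 and 26.2 in the cKO mice. The threonine enzyme Tars2 had 29.5 and 20.8 FPKM in the f/f mice and 20.7 and 24.7 in the cKO mice.

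The templates of these ribosomes were the 13 mRNAs of mitochondrial DNA, with a centred median of -0.24 and 0.32 in the f/f mice and 0.14 and -0.16 in the cKO mice. COX1, the catalytic subunit of cytochrome c oxidase, had 3016 and 4314 FPKM in the f/f mice and 3992 and 3472 in the cKO mice. COX2 had 1234 and 2367 FPKM in the f/f mice and 2001 and 1384 in the cKO mice. The rRNA of the small subunit, mt-Rnr1, had 57.5 and 194 FPKM in the f/f mice and 167 and 63.1 in the cKO mice. Its FPKM was thus high in both libraries with more mature blood cell RNA. The large subunit rRNA, mt-Rnr2, had 124 and 203 FPKM in the f/f mice and 141 and 75.1 in the cKO mice. Both rRNAs lay far below COX1 and COX2. How RNA was selected for sequencing is not stated here, so these values are not read as amounts of rRNA. In the list of mitochondrial transcription and RNA processing, the RNase P subunit Hsd17b10 had 53.1 and 112 FPKM in the f/f mice and 53.3 and 61.7 in the cKO mice. Slirp, an RNA-binding protein that stabilises mitochondrial mRNAs, had 23.4 and 71.8 FPKM in the f/f mice and 47.2 and 22.8 in the cKO mice. Over that list of 15 genes, with a median coding length of 1377 nt, the centred median was nevertheless -0.24 in f/f 2.

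Regulators of mitochondrial gene expression were lowest in f/f 2, the library where most ribosomal protein genes were highest. Over 10 tested regulators the centred median was 0.42 in f/f 1, -0.64 in f/f 2, -0.14 in cKO 1 and 0.49 in cKO 2. f/f 2 was the lowest library in 44.6% of all genes tested, whose centred median there was -0.15. The regulators had a median coding length of 1362 nt, and the part of length was not tested. Myc, a transcription factor that drives growth genes, had 107 and 43.9 FPKM in the f/f mice and 49.1 and 106 in the cKO mice. Yy1, whose letters are shown above, had 34.0 and 20.1 FPKM in the f/f mice and 26.0 and 35.3 in the cKO mice. None of the 10 was called, and 1 was higher in both cKO libraries (all genes tested: 6.31%). The 18 genes of the tricarboxylic acid cycle had centred medians from -0.04 to 0.14, with members on both sides: f/f 2 minus f/f 1 ran from -1.81 to 1.04 on the log2 scale. Sdhb, a subunit of succinate dehydrogenase, had 60.2 and 125 FPKM in the f/f mice, while Ogdh, of the α-ketoglutarate dehydrogenase complex, had 50.7 and 13.7. Both were chosen after their values were seen. Mdh2 had 138 and 223 FPKM in the f/f mice and 181 and 139 in the cKO mice. Idh2 had 138 and 139 FPKM in the f/f mice and 95.4 and 135 in the cKO mice, one of 3 genes among the 18 that were lower in both cKO libraries (all genes tested: 5.73%).

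**Figure D4:**
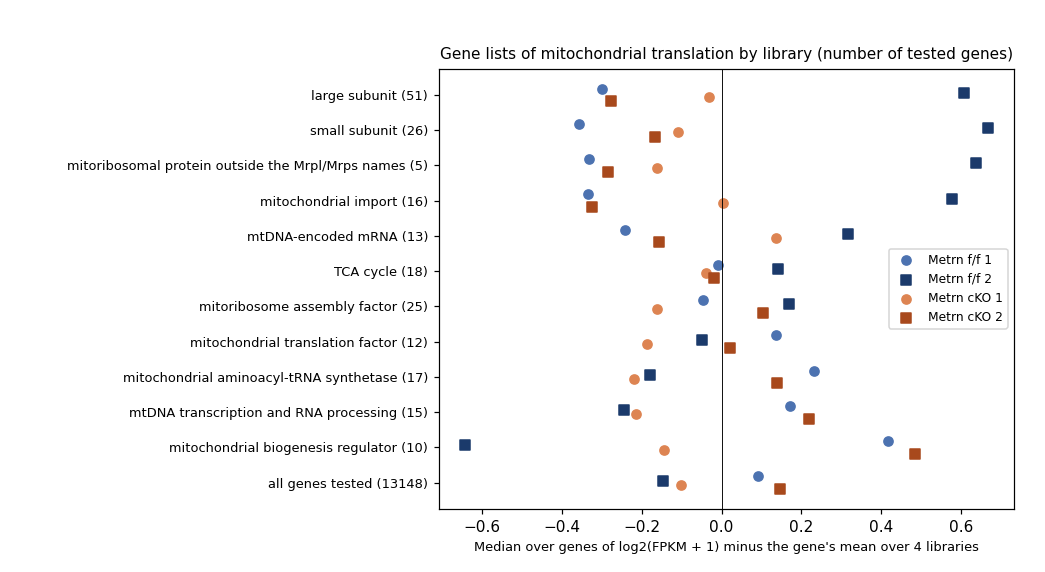
Median over the genes of each list of log2(FPKM + 1) minus the gene's mean over the 4 libraries, 1 point per library, with the number of tested genes in brackets; blue marks Metrn f/f and orange Metrn cKO. f/f 2 is far to the right for both ribosomal subunits and for import (0.58) and far to the left for the regulators (-0.64).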

How the data were processed

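LSK cells of 2 replicates per genotype, each taken as 1 mouse, were sequenced. The authors deposited 1 table of 47561 gene symbols per library. The unit was inferred from the values as deposited: decimals, never negative and summing to between 392717 and 671802, taken as FPKM. Read depth is unknown, so no counting error was computed. The submitters' processing notes list, for the build mm10, featureCounts 1.6.4, HISAT2 2.1, DESeq2 2.11.40.6, cutadapt 1.16.5 and bcl2fastq 2.19. What each did, the annotation and the strand setting were not given in the sources used here.

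Genes that reached 1 FPKM in 2 or more libraries were tested on log2(FPKM + 1) with limma 3.58.1 in R 4.3.3. The fit used an intensity trend and was 2-sided, with Benjamini-Hochberg adjustment over all genes and a threshold of 0.05. A run on simulated data used independent noise narrower than the typical spread here, so it does not show the power in these data. A pseudocount of 1 understates the change of low genes. The members and lists were chosen with earlier results of these data known. Lists are described by counts and medians, with no test. Values were named for the most and least abundant genes of each subunit, the Mrps18 paralogs, non-overlapping genes differing 1.3-fold, the widest and narrowest gaps between the wild-type mice, and the 2 most abundant genes of each list; others are said to be chosen later. Coding lengths and neighbours come from GENCODE on GRCm38 and promoters from RefSeq. Alternatives were other scalings, pseudocounts and filters, leaving out each library and a replicate block. Same-numbered libraries deviated oppositely (correlation -0.71 over all genes), and the main fit pairs no mice. This correlation compares a single difference per group, so it cannot show whether same-numbered mice were handled together.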

Additional observations from a re-analysis of the deposited data

How the results depend on the processing

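No mitochondrial ribosomal protein gene was called by limma under any alternative. Over all genes, limma called 0, 4 with the replicate block and 102 with the crossed block, a pairing of unequal numbers added after seeing the data because same-numbered libraries correlated at -0.71; leaving out single libraries gave 0 to 34. Leaving out 1 library at a time moved the median log2 difference from -0.81 to 0.19 over the 78 genes, from -0.76 to 0.15 over the large subunit and from -0.84 to 0.19 over the small subunit, and the number of genes with a lower level in Metrn cKO from 15 to 75. The positive ends are those without f/f 2. For single genes the same ranges were -1.06 to 0.40 for Mrpl33, -1.52 to 0.41 for Mrpl52, -1.13 to 0.022 for Mrpl12, -1.03 to 0.44 for Mrps21, -0.90 to 0.46 for Mrps18c, -0.78 to 0.36 for Mrps15, -1.496 to 0.23 for Mrpl14, -0.72 to 0.15 for Mrps18a and -0.22 to 0.53 for Mrpl49. Without cKO 2 the difference was 0.33 for Mrps21 and 0.041 for Mrps18c. Only the genes named in this section were followed singly, some of them chosen for small p-values. Among them, Mrpl38, Mrpl4 and Mrps18b kept a lower level in Metrn cKO under every alternative. For Mrpl38, leaving out a library could not change the direction, since both cKO libraries lay below both f/f libraries. The same holds for the other non-overlapping genes named above. With 2 mice per group and an unknown depth, a difference that was not called cannot be taken as absent, and a lone remaining sample was assumed to vary like the other group.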
